A study of Mus musculus with 8 samples.

Results

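Marker genes of hepatic stellate cells were examined in the liver of mice that carry a phosphorylation-resistant form of perilipin 5. PLIN5 is a protein of the lipid droplet surface, and in PLIN5 S155A mice (SA/SA) a serine that protein kinase A can phosphorylate is replaced by alanine in every cell of the body. The members were the 10 rows of the gene count table whose gene names are Lrat, Des, Reln, Hgf, Pdgfrb, Dcn, Rgs5, Ecm1, Hand2 and Acta2, out of 45706 genes in all. All 10 passed the filter on low counts that left 14629 genes to be tested. The groups were 4 WT and 4 SA/SA mice, all female C57BL/6J mice of 4 months on regular chow that had been fasted overnight, with 1 liver library per mouse. The knock-in was made by CRISPR-Cas9, is not limited to the liver or to any cell type, and was described for 1 sequenced founder. The question the design addresses is what loss of this phosphorylation site changes in the fasted liver.

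Hepatic stellate cells lie between the hepatocytes and the endothelium of the sinusoid. In the quiescent state they store vitamin A as retinyl esters in lipid droplets of their own, release growth factors and extend contractile processes around the sinusoid. After injury they become myofibroblasts, lose their retinoid, make alpha smooth muscle actin and deposit collagen. The members stand for these roles. Lrat esterifies retinol for storage, Des is the intermediate filament desmin, Hand2 is a transcription factor, and Reln, Hgf, Dcn and Ecm1 encode secreted proteins. Pdgfrb is the receptor for platelet-derived growth factor B, Rgs5 damps signals from G protein-coupled receptors in pericytes, and Acta2 encodes alpha smooth muscle actin.

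The promoters of 4 members are shown because Lrat, Reln and Rgs5 had their lowest level in the same SA/SA liver, while Ecm1 did not. Each sequence is the 150 bases before the RefSeq start site in build GRCm38.p6, 5′ to 3′ in the direction of transcription, and none overlaps an annotated exon. Capitals mark the GC box GGGCGG, the CCAAT box CCAAT and the TATA motif TATAAA on either strand, and no marked matches overlap each other. The windows are chr3:82903975-82904124 for Lrat (reverse strand), chr5:22344706-22344855 for Reln (reverse strand), chr1:169655351-169655500 for Rgs5 (forward strand) and chr3:95739570-95739719 for Ecm1 (reverse strand).
Lrat: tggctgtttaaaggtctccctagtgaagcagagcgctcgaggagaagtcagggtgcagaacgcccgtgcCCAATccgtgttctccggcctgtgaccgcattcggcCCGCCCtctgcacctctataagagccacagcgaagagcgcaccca
Reln: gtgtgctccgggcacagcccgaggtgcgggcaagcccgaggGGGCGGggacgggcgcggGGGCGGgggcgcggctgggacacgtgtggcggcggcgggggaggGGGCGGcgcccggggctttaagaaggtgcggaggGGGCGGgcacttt
Rgs5: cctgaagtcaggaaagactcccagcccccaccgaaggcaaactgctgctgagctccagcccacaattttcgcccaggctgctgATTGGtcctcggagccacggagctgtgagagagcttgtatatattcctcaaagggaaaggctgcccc
Ecm1: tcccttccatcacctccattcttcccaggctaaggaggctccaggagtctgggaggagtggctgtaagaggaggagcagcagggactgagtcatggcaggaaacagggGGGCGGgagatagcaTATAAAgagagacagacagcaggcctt
The Reln window held 4 GC boxes and was 80.0% G and C, against a median of 54.0% over the 32851 promoters of the table. Over the 250 bases before the start site, the GC box was found in 5 of the 8 members in the table and in 32.7% of all promoters. The CCAAT box was found in 3 of the 8 members (Lrat, Rgs5 and Hand2) and in 33.8% of all promoters. TATAAA was found in Ecm1 alone among the 8 and in 12.4% of all promoters. Lrat, Reln and Rgs5, picked as examples, had no searched motif in common: the Lrat window has a GC box and a CCAAT box, the Reln window GC boxes only and the Rgs5 window a CCAAT box only. Hgf and Acta2, lowest in the same SA/SA liver but not shown, had none of the searched motifs over the 250 bases.

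The total estimated count was between 39709785 and 54540864 per library. The labels give hepatocytes as the cell type beside liver as the tissue, but markers of stellate cells, sinusoidal endothelium, Kupffer cells and hepatocytes were all detected, so the values are read as whole liver. Plin5 itself stood between 183 and 254 CPM in WT and at 457, 276, 192 and 386 CPM in SA/SA replicates 1 to 4. The groups overlapped through SA/SA replicate 3 alone, and the other SA/SA livers were above every WT liver. CPM, the unit of level used throughout, is the estimated count scaled to a common library size after TMM normalization. SA/SA replicate 3 stood apart in lymphocyte markers, with a summed level of 2072 CPM over 13 genes against 20.9 to 49.9 CPM in the other 7 livers, nearly all of it from the immunoglobulin genes Ighm and Igkc. Replicates 1 and 4 of both genotypes carry animal numbers under 200 (the low series), and replicates 2 and 3 carry numbers over 800 (the high series), so comparisons within a series are 2 mice against 2. The labels do not say what the series stand for.

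Per kb of annotated exon, the members spanned a wide range of levels in these livers. Ecm1 was at 103 CPM per kb (mean of 8 mice), Dcn at 20.9 and Rgs5 at 5.63 CPM per kb. The lowest mouse for Ecm1 (81.7 CPM per kb) was above the highest for Dcn (29.1 CPM per kb), and the lowest for Dcn (10.4 CPM per kb) was above the highest for Rgs5 (7.87 CPM per kb). Below Rgs5 came Hand2 (3.26), Reln (2.23), Lrat (2.02), Pdgfrb (1.89), Des (1.71), Acta2 (1.07) and Hgf (0.722 CPM per kb), and the range of each of these genes overlapped that of its neighbour in this order. Acta2, the marker of the activated state, was therefore among the lowest of the 10 per unit of length, and Ecm1 the highest. Ecm1 is also made by hepatocytes, so its level in whole liver is not one of stellate cells alone. In whole liver, fewer stellate cells and less RNA per stellate cell cannot be told apart.

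**Figure D1:**
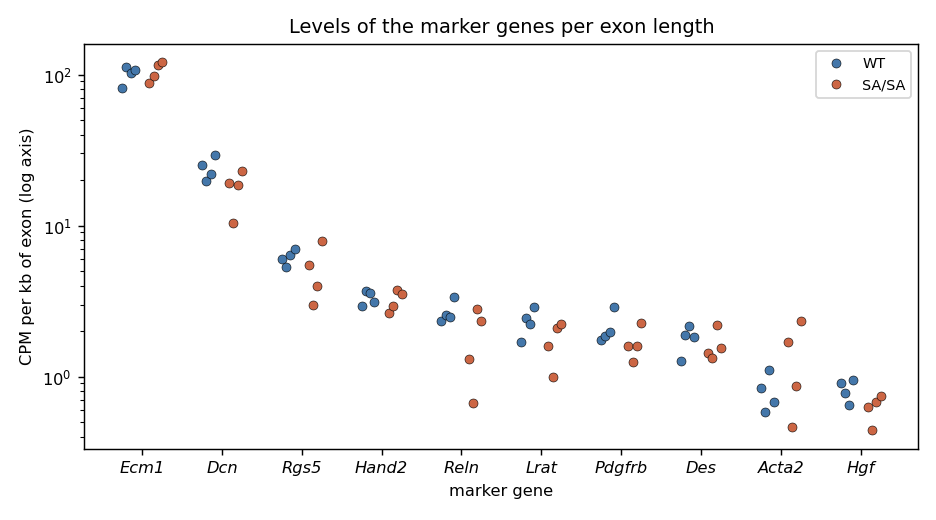
Level of each marker gene in CPM per kb of annotated exon on a log axis, with 1 point per mouse, WT in blue and SA/SA in orange, ordered by the mean of all 8 mice. Ecm1 and Dcn stand clear of the rest, with 8-mouse means of 103 and 20.9 CPM per kb, and the other 8 genes overlap their neighbours.

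Lrat and Reln, the retinol esterifying enzyme and the secreted glycoprotein reelin, had lower mean levels in SA/SA livers, within the spread between mice. Lrat (ENSMUSG00000028003, chr3:82892579-82903973, GRCm38) was at 9.03, 13.1, 11.9 and 15.4 CPM in WT replicates 1 to 4 and at 8.51, 5.36, 11.3 and 11.9 CPM in SA/SA replicates 1 to 4. Only SA/SA replicates 1 and 2 were below every WT liver. The log2 fold change of Lrat was -0.42 (SE 0.25, 95% interval -0.98 to 0.14), with an adjusted p of 0.993 in edgeR and p = 0.171 in an exact permutation test on log2 CPM (two-sided). That test cannot give a p below 0.0286 with 4 mice against 4. Reln (ENSMUSG00000042453, chr5:21884454-22344702) was at 55.03, 61.0, 59.3 and 79.9 CPM in WT and at 30.9, 15.9, 66.9 and 55.1 CPM in SA/SA mice. For Reln, SA/SA replicates 1 and 2 held the low values, while SA/SA replicate 4 was just above the lowest WT liver. SA/SA replicate 3 was above 3 of the 4 WT livers, and the highest of the 8 livers had 5.04 times the level of the lowest. Reln had a log2 fold change of -0.60 (SE 0.36, 95% interval -1.41 to 0.21), with p = 0.229 in the exact permutation test. Without SA/SA replicate 2, the fold change was -0.22 for Lrat and -0.32 for Reln on the log2 scale, and for Reln it was -0.91 without SA/SA replicate 3.

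Des and Hand2, the cytoskeletal and the transcription factor marker, had similar means in both genotypes, within the spread between mice. Des (ENSMUSG00000026208, chr1:75360329-75368579) was at 6.70 ± 1.42 CPM in WT and 6.11 ± 1.49 CPM in SA/SA mice (mean ± SD, n = 4), a log2 fold change of -0.14 with a 95% interval of -0.61 to 0.34. It was -0.03 without WT replicate 3 and -0.31 without SA/SA replicate 3. Hand2 (ENSMUSG00000038193, chr8:57320983-57324633) was at 7.83 ± 0.82 CPM in WT and 7.51 ± 1.21 CPM in SA/SA mice (n = 4), a log2 fold change of -0.06 with a 95% interval of -0.41 to 0.28. For both genes SA/SA replicate 3 had the highest level of the 8 livers. Of the 31-base words of Hand2 transcripts, 17.3% also occur, read on either strand, in those of Hand2os1, an overlapping gene on the other strand. Whether reads were divided between them depends on the use of strand in counting, which is not given, and was not tested.

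Retinoid genes outside the members were taken from a list of 30, of which 23 could be tested. None was called after adjustment, 13 had a log2 fold change below 0 and 10 above 0, and the median was -0.04 (-0.07 to 0.02 when 1 mouse was left out) against -0.01 over all genes tested. The smallest p was that of Dgat1, an acyltransferase that makes triglyceride and can also esterify retinol, which was at 31.7 to 37.8 CPM in WT and 38.6 to 44.6 CPM in SA/SA mice. The Dgat1 groups did not overlap (SE of the log2 fold change 0.10), and the largest log2 fold change of the list was 0.28. The adjusted p of Dgat1 was 0.993 in edgeR, however, and 0.943% of all genes tested were higher in every SA/SA than in every WT mouse. Cyp26a1, which breaks down retinoic acid, was at 1.79, 3.81, 2.51 and 4.74 CPM in WT and 1.54, 1.49, 2.32 and 1.98 CPM in SA/SA mice, a log2 fold change of -0.81 (SE 0.32) with the same adjusted p of 0.993 in edgeR. Ttr, the plasma partner of retinol binding protein and the most abundant gene of the list, had a log2 fold change of -0.09.

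Among the signalling members, Hgf and Pdgfrb had lower means in SA/SA livers, and neither passed the test. Hgf (ENSMUSG00000028864, chr5:16553495-16620152), the growth factor that stellate cells send to hepatocytes, was at 6.56, 5.62, 4.63 and 6.81 CPM in WT and at 4.49, 3.16, 4.91 and 5.34 CPM in SA/SA mice. The groups overlapped through WT replicate 3. Its log2 fold change was -0.40 (SE 0.20, 95% interval -0.85 to 0.05), with an unadjusted p of 0.0769 and an adjusted p of 0.993 in edgeR, the smallest unadjusted p of the 10 members. Without SA/SA replicate 2, the log2 fold change of Hgf was -0.26. Pdgfrb (ENSMUSG00000024620, chr18:61045150-61085061) was at 9.58, 10.1, 10.8 and 15.8 CPM in WT and at 8.73, 6.82, 8.71 and 12.4 CPM in SA/SA mice. A single SA/SA liver, replicate 4, overlapped the WT range. Pdgfrb had a log2 fold change of -0.33 (SE 0.21, 95% interval -0.81 to 0.14), and one of -0.15 without WT replicate 4 and -0.52 without SA/SA replicate 4.

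The ligands, receptors and activators that act with the signalling members were taken from a list of 21, of which 18 were tested. Of these, 12 had a log2 fold change below 0 and 6 above 0, with a median of -0.13 (-0.05 without WT replicate 4) and no gene called. Hpn, a protease that activates the HGF precursor and the most abundant gene of the list, was at 427 to 496 CPM in WT and 447 to 514 CPM in SA/SA mice. Hgfac, the HGF activator, had a log2 fold change of 0.15 (SE 0.13). Itgb8, an integrin subunit that can release latent TGF beta, was at 0.253 to 0.777 CPM in WT and 0.111 to 0.317 CPM in SA/SA mice, a log2 fold change of -1.15 (SE 0.46) at an adjusted p of 0.993 in edgeR.

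Of the matrix members, Dcn had a lower mean in SA/SA livers and Ecm1 did not. Dcn (ENSMUSG00000019929, chr10:97479609-97518143), the collagen-binding proteoglycan decorin, was at 147, 115, 127 and 170 CPM in WT and at 112, 60.9, 109 and 134 CPM in SA/SA mice. Here, 3 SA/SA livers were below every WT liver and SA/SA replicate 4 was within the WT range. Dcn had a log2 fold change of -0.43 (SE 0.22, 95% interval -0.92 to 0.06), with p = 0.114 in the exact permutation test and an adjusted p of 0.993 in edgeR. It was -0.24 without SA/SA replicate 2. Ecm1 (ENSMUSG00000028108, chr3:95734147-95739569), a secreted matrix protein that holds TGF beta in its latent form, was at 254 ± 33.4 CPM in WT and 266 ± 38.1 CPM in SA/SA mice (n = 4). Its log2 fold change of 0.06 had a 95% interval of -0.24 to 0.37.

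In the list of fibrogenic and matrix genes, 31 of 33 symbols could be tested and none was called. Of the 31, 25 had a log2 fold change below 0 and 6 above 0, with a median of -0.31. This count was 23 of 32 without SA/SA replicate 2, with a median of -0.18, and 22 of 31 without WT replicate 4. The smallest p was that of Col5a1, a fibrillar collagen chain, at 12.5 to 14.8 CPM in WT and 9.51 to 12.7 CPM in SA/SA mice (log2 fold change -0.33, SE 0.12, adjusted p = 0.993 in edgeR). Fn1, which hepatocytes secrete as plasma fibronectin, was the most abundant gene of the list and had a log2 fold change of -0.13, and Tgfb1, the main fibrogenic cytokine, had one of 0.14 (SE 0.20).

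Rgs5 and Acta2, the pericyte and the contractile marker, each had both their highest and their lowest level of the 8 livers in SA/SA mice, and neither was called. Rgs5 (ENSMUSG00000026678, chr1:169655501-169695813) was at 27.4, 24.1, 28.9 and 31.8 CPM in WT and at 25.0, 13.6, 18.2 and 35.8 CPM in SA/SA mice. All 4 WT values lay between the 13.6 CPM of SA/SA replicate 2 and the 35.8 CPM of SA/SA replicate 4. For Rgs5 the log2 fold change was -0.28 (SE 0.25, 95% interval -0.84 to 0.29), and it was -0.08 without SA/SA replicate 2 and -0.57 without SA/SA replicate 4. Acta2 (ENSMUSG00000035783, chr19:34241090-34255590) was at 1.85, 1.28, 2.44 and 1.48 CPM in WT and at 3.74, 1.01, 1.90 and 5.14 CPM in SA/SA mice. Both SA/SA livers of the low series were above all other livers, while the other 2 were within or below the WT range. The log2 fold change of Acta2 was 0.75 (SE 0.45, 95% interval -0.26 to 1.76), with p = 0.343 in the exact permutation test and an adjusted p of 0.993 in edgeR, and it was 0.34 without SA/SA replicate 4.

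**Figure D2:**
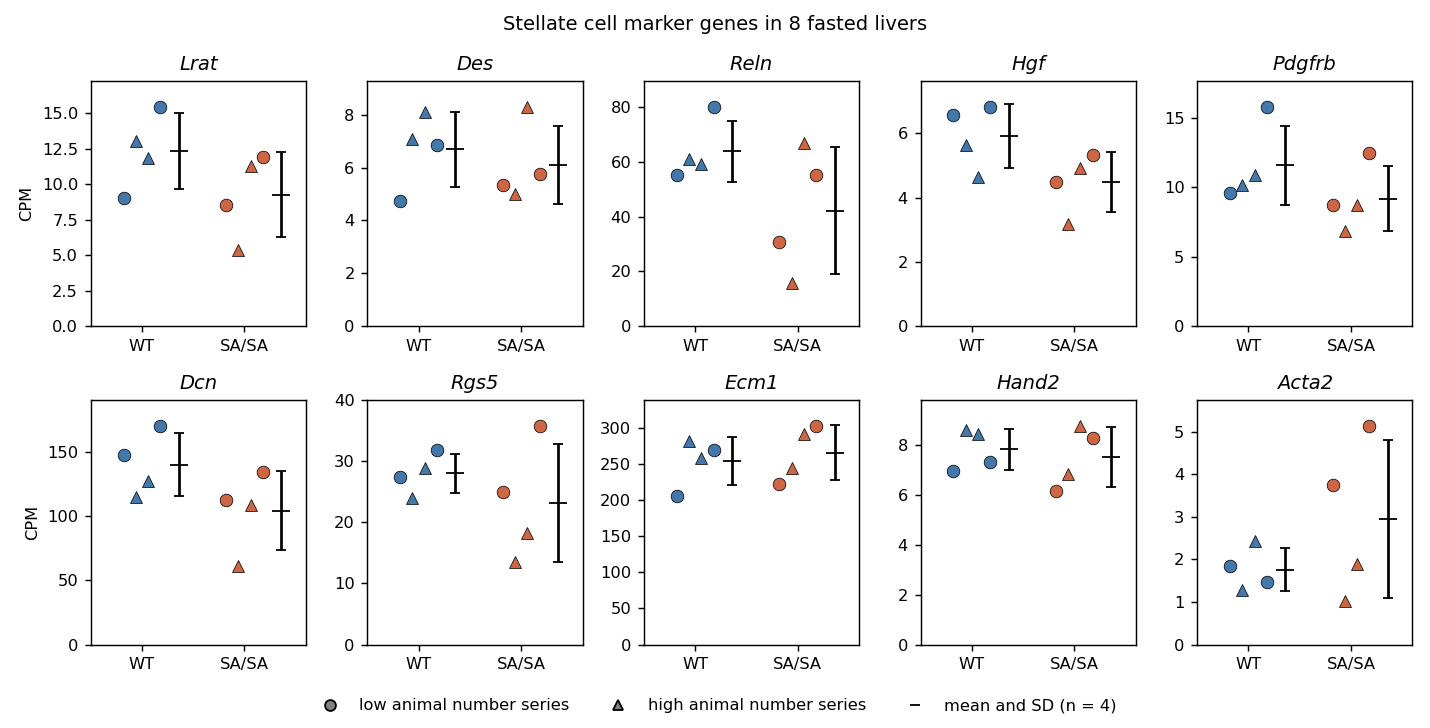
CPM of the 10 marker genes in each liver, with WT in blue, SA/SA in orange, circles for the low and triangles for the high animal number series, and the mean and SD (n = 4) beside the points. In every panel the WT and SA/SA points overlap, and SA/SA replicate 2 (left triangle of the orange points) is lowest in 7 of the 10 panels.

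The contractile genes of smooth muscle, which vascular smooth muscle also expresses, were described beside Acta2 from a list of 18, of which 15 were tested. None was called, 8 had a log2 fold change above 0 and 7 below 0, and the median was 0.04 (0.30 without WT replicate 2, -0.07 without SA/SA replicate 4). Actg2, the gamma actin of smooth muscle, had the smallest p among genes higher in SA/SA mice (log2 fold change 1.07, SE 0.51, adjusted p = 0.993 in edgeR) and Mylk, the myosin light chain kinase, among those lower (log2 fold change -0.14, SE 0.13). Within the low series the median difference between SA/SA and WT mice was 0.69 and within the high series -0.15 on the log2 CPM scale. Across the 8 livers, the Pearson r with Acta2 was above 0.5 for 6 of the 15 genes, between 0 and 0.5 for 8 and below 0 for 1. It was highest for Actg2 (0.84), Myh11 (0.83) and Tagln (0.72), 0.03 for Cald1, the most abundant gene of the list, and lowest for Mcam (-0.43). Myh11, the myosin heavy chain of smooth muscle, reached 4.25 and 5.28 CPM in SA/SA replicates 1 and 4 and lay between 1.10 and 2.73 CPM in the other 6 livers. Myh11, Tagln and Mcam are named after their values were seen. Whether vessel content of the piece of liver differed between mice was not tested.

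Over the 10 members together, no gene was called and no member separated the genotypes. At an adjusted p under 0.05 in edgeR, 0 of the 10 members were called, against 0 of 14629 genes (0%), and at an unadjusted p under 0.05, 0 of the 10 were lower, against 1.98% of all genes tested. No member was lower in every SA/SA than in every WT mouse, against 1.36% of all genes tested. The log2 fold change was below 0 for 8 of the 10 members and above 0 for Ecm1 and Acta2, and the median of the 10 was -0.31 (-0.15 without SA/SA replicate 2, -0.18 without WT replicate 4 and -0.51 without SA/SA replicate 4). Over all genes tested, 7491 of 14629 were below 0 and the median was -0.01. On simulated counts with the spread of these libraries, 200 genes were changed and each gene was drawn independently of the others. Of 50 genes changed 2-fold, edgeR called 27. That share depends on the number of genes changed and on independent genes, so it is not a measure of power for the members.

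**Figure D3:**
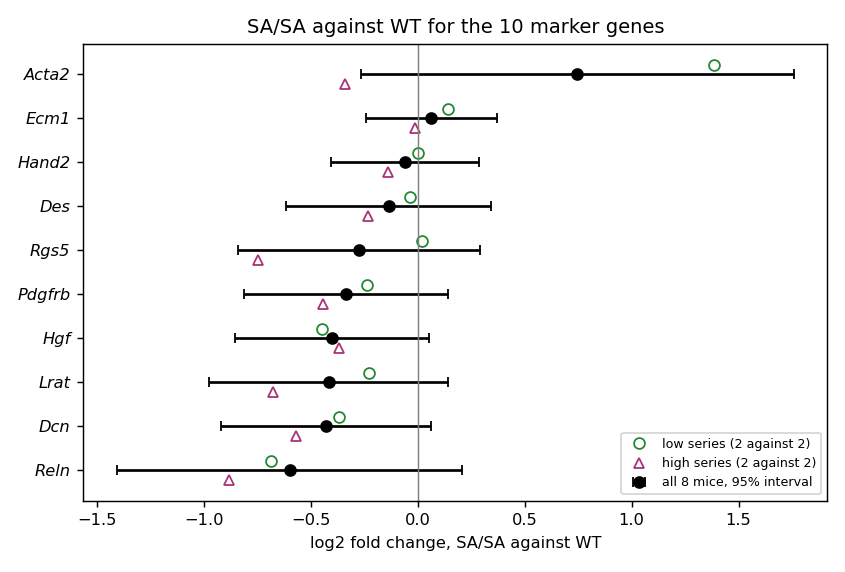
Log2 fold change of SA/SA against WT for each marker gene, with the edgeR estimate over all 8 mice and its 95% interval in black, and the difference of mean log2 CPM within the low series (circles) and the high series (triangles), 2 mice against 2. All 10 intervals cross 0, 8 estimates are below 0, and the series differ most for Acta2, at 1.39 in the low and -0.34 in the high series.

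Single livers stood at the ends of the range for most of the members. In SA/SA replicate 2, all 10 members were below their 8-mouse mean of log2 CPM and 7 of them (Lrat, Reln, Hgf, Pdgfrb, Dcn, Rgs5 and Acta2) had their lowest value, with a median deviation of -0.76. Of all genes tested, 13.0% had their lowest value in this liver and 50.8% were above their mean in it. WT replicate 4 stood at the other end, with 8 of the 10 members above their mean, 5 of them (Lrat, Reln, Hgf, Pdgfrb and Dcn) at their highest and a median deviation of 0.40. Of all genes tested, 51% were above their mean in this liver and 12.7% had their highest value in it. The 5 genes that were highest in WT replicate 4 were all lowest in SA/SA replicate 2. SA/SA replicate 4 and WT replicate 3 each had 9 of 10 members above their mean, and WT replicate 2 had 7. SA/SA replicate 3 had 5, WT replicate 1 had 4 and SA/SA replicate 1 had 2. Of all genes tested, 50.2% to 51.6% were above their mean in these livers.

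**Figure D4:**
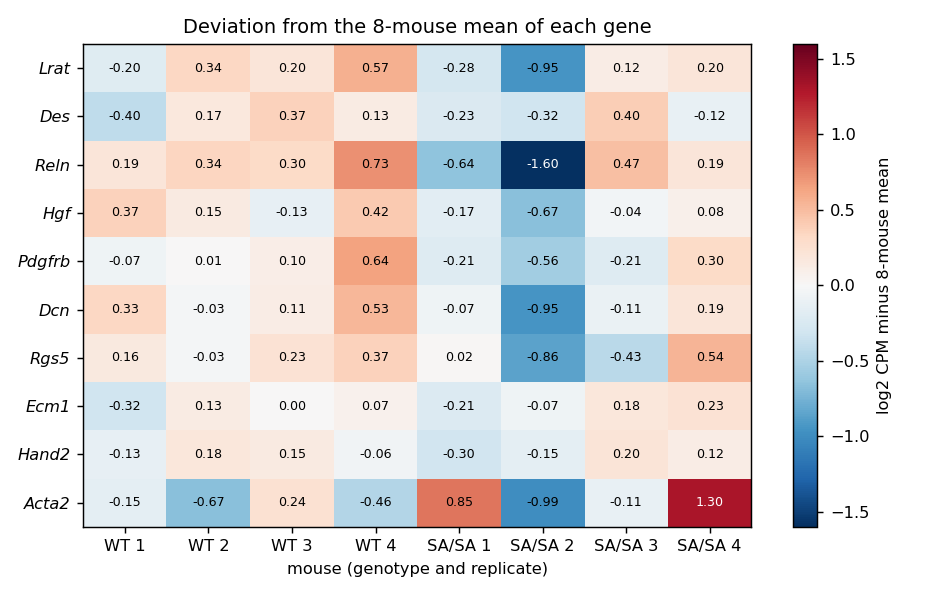
Deviation of log2 CPM from the 8-mouse mean for each marker gene (rows) in each liver (columns), in blue below and in red above the mean, with the value in each cell. The column of SA/SA replicate 2 is below 0 for all 10 genes, down to -1.60 for Reln, and Acta2 is highest in SA/SA replicates 4 and 1.

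A second list of stellate genes, none of them a member, was read in the same livers. All 26 genes found in the table were tested and none was called. At an unadjusted p under 0.05, 3 of the 26 were lower in SA/SA mice, against 1.98% of all genes tested. The log2 fold change was below 0 for 21 (80.8%) and above 0 for 5, against 51.2% below 0 over all genes tested, and the median was -0.23. The count below 0 was 18 of 26 without SA/SA replicate 2 (median -0.15) and likewise 18 of 26 without WT replicate 4. In SA/SA replicate 2, 17 of the 26 had their lowest value and 2 were above their mean, against 13.0% and 50.8% of all genes tested. In WT replicate 4, 12 had their highest value, against 12.7% of all genes tested. Colec10, a collectin of stellate cells with the smallest p of the list, was at 22.6, 17.1, 20.6 and 23.9 CPM in WT and at 16.9, 10.4, 15.8 and 17.8 CPM in SA/SA mice, a log2 fold change of -0.47 (SE 0.18, unadjusted p = 0.0243, adjusted p = 0.993 in edgeR). Cxcl12, a chemokine and the most abundant gene of the list, was at 298 to 373 CPM in WT and 299 to 305 CPM in SA/SA mice. Steap4, a metalloreductase that hepatocytes also express, went the other way within the high series, at 114 and 144 CPM in SA/SA against 77.4 and 52.5 CPM in WT mice.

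Markers of other cells of the liver were measured in the same way, and their part in the stellate values was not tested. For sinusoidal endothelium, 14 of 17 markers had a log2 fold change below 0 (median -0.21), their summed level was 371 to 515 CPM in WT and 340 to 437 CPM in SA/SA mice, and SA/SA replicate 2 was again the lowest and WT replicate 4 the highest of the 8 livers. Without WT replicate 4, 9 of 17 were below 0, with a median of -0.07. Stab1, the scavenger receptor stabilin 1 and the endothelial marker with the highest level, had a log2 fold change of 0.45, and Ptprb, a phosphatase of endothelial junctions, one of -0.46 (both with an adjusted p of 0.993 in edgeR). For Kupffer cells and macrophages, 13 of 13 markers had a log2 fold change above 0 over all 8 mice (median 0.20, none called), but the series went opposite ways: 11 of 13 were below 0 in the low series (median difference -0.34) and 0 of 13 in the high series (median difference 0.75). The median was 0.04 without SA/SA replicate 2 and 0.48 without WT replicate 4. Kupffer markers had summed levels of 341 to 663 CPM in WT and 364 to 710 CPM in SA/SA mice. Their highest liver was SA/SA replicate 2, with a median deviation of 0.61. For hepatocytes, 12 of 12 markers were above their mean in SA/SA replicate 2, with a median deviation of 0.20. Their highest median deviation was 0.30 in SA/SA replicate 3, where that of the stellate members was 0.04. The log2 fold changes of the hepatocyte markers over all 8 mice had a median of 0.12. That median was 0.02 without SA/SA replicate 3 and 0.05 without SA/SA replicate 2, and 10 of 12 markers were below 0 in the low series against 1 of 12 in the high series. The 13 lymphocyte markers had a median log2 fold change of 0.96, and of 0.16 without SA/SA replicate 3. For cholangiocytes 5 of 6 tested markers were below 0 (median -0.18, from -0.33 to -0.08 when 1 mouse was left out), and for portal fibroblasts and mesothelium 4 of 10 (median 0.06, from -0.21 to 0.19). Of markers of pancreatic acinar cells 2 of 11 could be tested, of adipocytes 0 of 5 and of skeletal muscle 1 of 11.

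**Figure D5:**
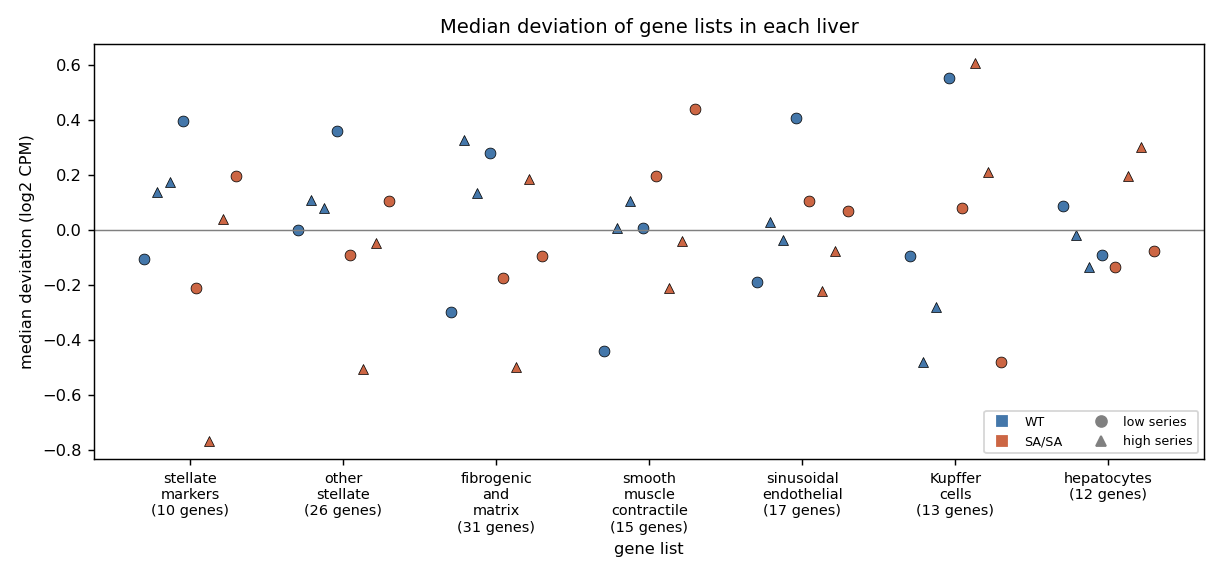
Median deviation of log2 CPM from the 8-mouse mean over the tested genes of 7 gene lists, with 1 point per liver, WT in blue, SA/SA in orange, circles for the low and triangles for the high series. SA/SA replicate 2 is the lowest point for both stellate lists (-0.76 and -0.50) and the highest for Kupffer cells (0.61).

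Within the high series, all 10 members had a lower mean log2 CPM in SA/SA than in WT mice, with a median difference of -0.40. This series holds SA/SA replicate 2. The other SA/SA mouse of the series, replicate 3, was above both WT mice for 4 members (Des, Reln, Ecm1 and Hand2) and below both for 4. No share of all genes was computed for these counts of 1 mouse against 2, so they are a description only. In 4 of the 10 members (Lrat, Pdgfrb, Dcn and Rgs5) both SA/SA mice were below both WT mice, against 23.8% of all genes tested. Within the low series 6 of the 10 members were lower, with a median of -0.13, and in 2 of them (Hgf and Dcn) both SA/SA mice were below both WT mice, against 16.3% of all genes tested. Dcn was the only member to do so in both series, and Colec10, Pdgfra, Vipr1 and Gucy1b3 of the second stellate list did so too. No share of all genes was computed for both series together, so how common this is cannot be read. Acta2 was higher in both SA/SA mice than in both WT mice of the low series. Its difference was 1.39 there and -0.34 among high-series mice. No share of all genes is given for this upward separation among low-series mice, so how common it is there cannot be read. Among high-series mice, 3327 of the 14629 genes tested had both SA/SA mice above both WT mice. For Rgs5 the difference was 0.02 among low-series and -0.74 among high-series mice. In the test of the interaction between genotype and series, Acta2 had an unadjusted p of 0.0200 and Rgs5 of 0.0328, but their adjusted p values were 0.354 and 0.404 in edgeR, and no gene of the 14629 was called (0%).

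Some pairs of members went together across livers and others did not. The pairs named are examples, and no grouping was tested. The Pearson r over the 8 mice was 0.94 for Lrat with Reln, 0.93 for Hgf with Dcn and 0.89 for Dcn with Rgs5. It was 0.87 for Reln with Dcn and 0.86 for Lrat with Pdgfrb. Ecm1 with Hand2 (r = 0.80) and Des with Hand2 (r = 0.78) went together as well, whereas Ecm1 with Hgf (r = 0.05) and Ecm1 with Dcn (r = 0.05) did not. These correlations describe 8 livers of both genotypes, and SA/SA replicate 2 weighs on them. Without it, r was 0.82 for Lrat with Reln and 0.81 for Hgf with Dcn, but 0.27 in place of 0.72 for Lrat with Rgs5. Acta2 was the member least like the mean of the others (r = 0.26, and -0.33 without SA/SA replicate 2).

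Of the 14619 other genes tested, 32 (0.219%) had an r above 0.9 with the mean standardized log2 CPM of the members. The 10 most similar were Gm3362, Bambi, Sept4, Ttc3, Golm1, Pam, Tfpi, Rragd, Ccdc55 and Cdh13, with r from 0.97 to 0.93. Bambi, a decoy receptor for TGF beta, had 2.36 CPM in SA/SA replicate 2 and no less than 3.60 CPM in the other 7 livers. All 10 genes had their lowest level in SA/SA replicate 2, and without that liver their r was between 0.72 (Ccdc55) and 0.92 (Golm1). Since they were chosen by likeness to the members, their low level in that liver and the sign of their fold changes follow in part from the choice. The log2 fold change of these 10 genes was between -0.40 (Tfpi) and -0.05 (Ccdc55).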

How the data were processed

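Liver RNA of 8 mice was sequenced as stranded mRNA libraries. The deposited values are estimated counts that the authors made with salmon for each gene, scaled for transcript length and not normalized for library size. The submitters' processing notes name STAR, SAMtools, MultiQC, DESeq2 and GRCm38. The salmon version, the annotation and the use of strand in counting are not given in the sources used here. Columns were matched to mice by animal number. Estimated counts were rounded, filtered with filterByExpr and fitted with the quasi-likelihood test of edgeR 4.0.16 (R 4.3.3) with TMM, no block and Benjamini-Hochberg adjustment over 14629 genes. Log2 CPM used a prior count of 2, which understates changes of genes with few counts. Each mouse is 1 animal, and counts carry sampling error as well.

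The 10 members and the 14 other lists were chosen with earlier results of these data known. Named genes were the members, the genes of each list with the smallest p in each direction and the highest CPM, the 10 most similar genes, and Plin5. Only some of those of minor lists are given. Coordinates, exon lengths and shared 31-base words are from GENCODE M21 (GRCm38), which holds 45143 of the 45706 gene identifiers, and promoters from RefSeq (GRCm38.p6), matched by symbol for 8 members. No 2 libraries were copies (chi-square per gene of at least 40.2 in every pair). Tests were checked on simulated counts. Alternatives were DESeq2 1.42.0, limma 3.58.1 (voom), other scalings and filters, a robust fit, blocks for replicate number and animal series, and leaving out each mouse.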

Additional observations from a re-analysis of the deposited data

How the results depend on the processing

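Across 10 other fits and the leaving out of each of the 8 mice, no member was called, and the smallest adjusted p of a member was 0.798 (Dcn without SA/SA replicate 1, edgeR). DESeq2 called 6 genes over all genes tested where edgeR called 0, and no member was among them. A direction changed only for the 2 members nearest to 0: leaving out 1 mouse gave log2 fold changes from -0.0192 (without WT replicate 1) to 0.141 for Ecm1, which was also -0.00481 without SA/SA replicate 4, and from -0.141 to 0.0233 (without SA/SA replicate 1) for Hand2. The number of members below 0 was 7 to 9 of 10 when 1 mouse was left out, a count chosen after seeing the data. The number of members lower in every SA/SA mouse was 1 without WT replicate 3 (Hgf, against 2.24% of all genes tested in that comparison), 2 without SA/SA replicate 4 (Pdgfrb and Dcn, against 2.70%) and 0 without any other mouse. With a replicate block the median log2 fold change of the members was -0.35 and 0 genes were called. Same-numbered WT and SA/SA mice deviated with r from -0.11 to 0.17, so the numbers were not read as pairs. The median log2 fold change over 2 tested acinar genes was -1.75 over all 8 mice and 0.39 without WT replicate 2, whose summed level was 19.2 CPM against 4.07 to 6.43 CPM in the other livers, and the causes of these shifts were not tested. Depth bears most on Acta2, the member with the fewest reads, at 49 to 260 rounded counts per library.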
